A study of Homo sapiens with 23 samples.

Results

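The SLC2A family encodes the facilitative sugar transporters known as GLUTs, and the members described here are 10 of the 14 SLC2A genes in the GENCODE 44 annotation. They were taken as a named list, in which SLC2A12 had been picked out because its mRNA rose in all 3 THUMPD3 knockdowns of these same libraries. RNA was sequenced from A549, an established line of human lung carcinoma epithelial cells, after depletion of THUMPD3, an enzyme that methylates guanosine in tRNA. In the first 17 libraries an siRNA (siD3 #3, groups siControl with 2 libraries analysed here and siTHUMPD3 with 3, harvested on day 5) and a pair of doxycycline-inducible shRNAs (shD3 #1 with sh1Control and shD3 #4 with sh4Control, 3 libraries each, day 6) each had untreated controls of their own. A further 6 libraries of sh1Control and shD3#1, 3 of each, were sequenced more deeply, and the sources used here do not say whether they came from the same cultures as the first ones. The labels give control cells as WT and all others as THUMPD3 knockdown. The shRNA cells were lentivirally transduced and selected with puromycin, with no cloning step described, so these are populations of cells of a single cancer line. All values are reads counted per gene, and a level is given below as TMM cpm, its read count relative to the total of its library after scaling between the libraries of a table. In such bulk RNA a change in the number of expressing cells and a change in RNA per cell cannot be told apart.

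GLUT proteins carry hexoses and related polyols down their gradients, and they are grouped by sequence into 3 classes. Class I holds the well-known glucose carriers (SLC2A1, SLC2A3 and SLC2A4 here), class II holds SLC2A9, which carries urate, and SLC2A11, and class III holds SLC2A6, SLC2A8, SLC2A10, SLC2A12 and SLC2A13, several of which reside on internal membranes. Lung adenocarcinoma cells such as A549 are known to rely mainly on SLC2A1 for glucose uptake. Uptake is limited by the amount of transporter at the cell surface, which is set by trafficking and protein turnover as well as by mRNA, and only mRNA was measured here.

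The libraries held 9854294 to 22101059 counts in the first table and 27285889 to 59974740 in the deep table, where the shD3#1 libraries (up to 35458367) were all shallower than the sh1Control libraries (at least 51101905). A count of 3, taken as the limit of detection in 1 library, corresponded to 0.136 to 0.304 cpm in the first libraries and 0.050 to 0.110 cpm in the deep ones. THUMPD3 stood at 50.6% of its control mean in shD3 #1, 31.0% in shD3 #4, 17.1% in siD3 #3 and 49.6% in deep shD3 #1, with no overlap between groups. The exact two-sided permutation p was 0.1 with 3 libraries against 3 and 0.2, the doubled smaller tail, for siD3 #3, the smallest values that these group sizes allow. Summed levels of 7 epithelial markers were 7491 to 7919 cpm in sh1Control and 9012 to 9553 cpm in shD3#1, but 8599 to 8733 cpm in sh4Control and 7512 to 7931 cpm in shD3#4. They overlapped between siControl (7178 to 9124 cpm) and siTHUMPD3 (5048 to 9089 cpm), and in the deep libraries they were 5922 to 6642 cpm in the controls and 8208 to 8278 cpm in the knockdown. Summed levels of 8 fibroblast markers were 5.03 to 10.3 cpm in the first controls, 9.43 to 19.5 cpm in the first knockdowns, 10.9 to 11.9 cpm in deep sh1Control and 32.2 to 33.9 cpm in deep shD3#1. Of these 8, 5 were tested in shD3 #1, 4 in shD3 #4, 4 in siD3 #3 and 5 in deep shD3 #1. A call needs an adjusted p under 0.05 in edgeR and a change of 1.5-fold or more. In shD3 #1, 3 were called higher, in shD3 #4, 2 and in siD3 #3, 1. In deep shD3 #1, 4 were called higher and 1 lower. Over all genes tested, 14.5%, 8%, 12.5% and 15% were called higher in the same order, and 14.1% lower in deep shD3 #1. LUM was higher in all 4 comparisons (log2 fold changes of 0.69, 1.73, 2.46 and 3.67), COL3A1 in both shD3 #1 comparisons and shD3 #4 (3.45, 5.63 and 1.77), and COL1A1 in both shD3 #1 comparisons. The highest levels of COL1A1, COL3A1 and LUM in any library were 27.8, 6.46 and 5.48 cpm. The defining genes COL1A2 and DCN had at most 4 and 1 counts. The marker called lower in deep shD3 #1 was none of these, and THY1 ran from 0.637 to 3.00 cpm over the deep libraries. Of the 7 epithelial markers, 1 was called higher and 1 lower in both shD3 #1 and shD3 #4, and none in siD3 #3. In deep shD3 #1, 3 were called higher and 1 lower. Over all genes, 29.1% were called in either direction in shD3 #1 and deep shD3 #1, 12.5% in shD3 #4 and 22% in siD3 #3. EPCAM ran from 1.99 to 20.4 cpm over the first libraries. The sum of 7 leukocyte and endothelial markers was at most 2.52 cpm in the first table. It was 45.7 to 49.2 cpm in deep sh1Control and 91.1 to 99.3 cpm in deep shD3#1, nearly all of it CD68. PTPRC had no more than 4 counts and CD3E no more than 1 count anywhere. CD68 had 0 to 4 counts in the first libraries but 2462 to 3474 in the deep ones. The cause of that gap was not tested, so the deep CD68 values are not read here as a level of these cells. The part of these marker differences in the results below was not tested.

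Each knockdown was compared with its own control by edgeR's quasi-likelihood test over all genes that passed a filter on low counts, with Benjamini-Hochberg adjustment over all of them. A gene counts as called, higher or lower, where its adjusted p-value was under 0.05 and its change was 1.5-fold or more. In shD3 #1, 9 members passed the filter, 3 were called higher (SLC2A12, SLC2A3 and SLC2A13) against a background of 14.5% of all 16456 genes tested, and 1 was called lower (SLC2A4) against 14.6%. In shD3 #4, 7 members passed and SLC2A12 alone was called higher, with 8% of 16493 genes called higher and 4.49% lower. In siD3 #3, 8 members passed and 2 were called higher (SLC2A12 and SLC2A3), with 12.5% of 17032 genes called higher and 9.42% lower. In deep shD3 #1, 8 members passed, 4 were called higher (SLC2A12, SLC2A1, SLC2A3 and SLC2A13) with a background of 15% of 18763 genes, and 1 was called lower (SLC2A4) with a background of 14.1%. SLC2A12 enters these counts through the way it was chosen, and without it the numbers called higher were 2, 0, 1 and 3 in the same order. SLC2A10 passed the filter nowhere.

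**Figure D1:**
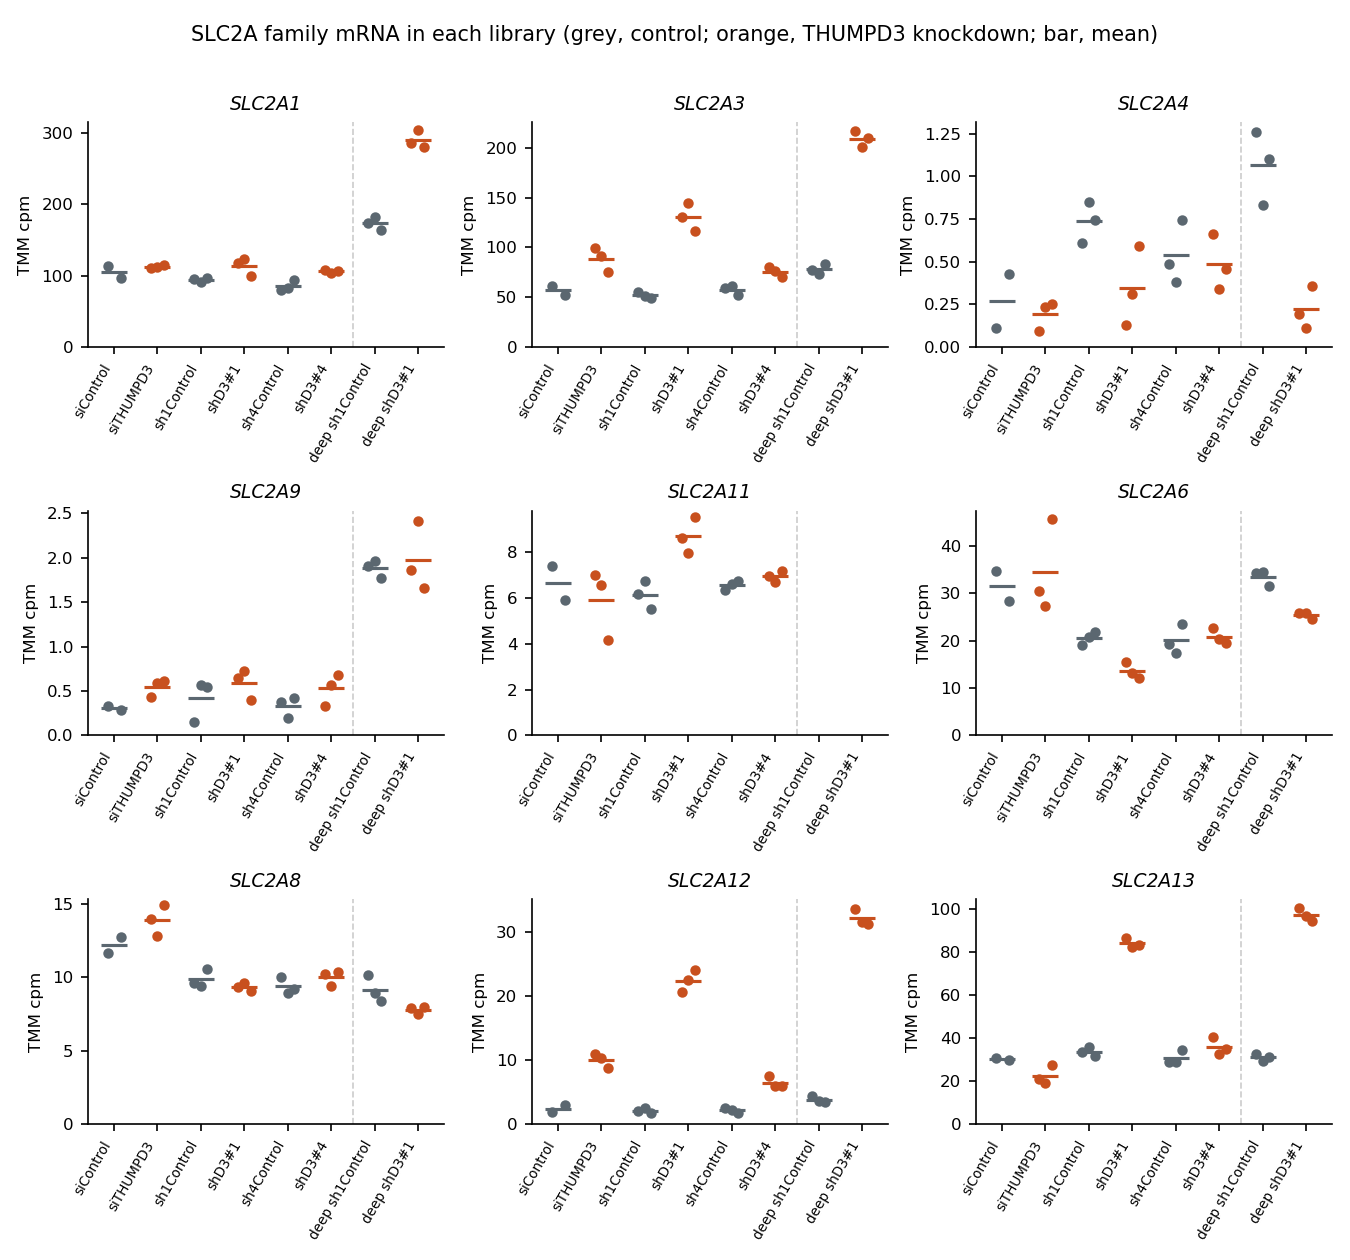
Level of 9 SLC2A members (TMM cpm, linear axes from 0) in each library, with points for libraries, bars for group means, grey for controls and orange for THUMPD3 knockdowns, and a dashed line between the first and the deep libraries, which were scaled separately. SLC2A12 lies above its controls in every knockdown, at 20.6 to 24.1 cpm in shD3#1 against 1.69 to 2.56 cpm in sh1Control, whereas SLC2A13 does so in both shD3#1 sets but not in siTHUMPD3. SLC2A10, with at most 1 count in a library, and SLC2A11 in the deep libraries, where it is listed at 0, are not drawn.

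SLC2A12 (GLUT12, ENSG00000146411) encodes a class III glucose transporter found in insulin-sensitive tissues and in some tumours. It lies on chromosome 6 at 133987581 to 134052624 on the minus strand of GRCh38. The 250 bases upstream of its RefSeq start (GRCh38.p14, chr6:134052625-134052874, minus strand) are shown because this member changed most, and they are set beside the upstream regions of SLC2A13 (chr12:40106082-40106331, minus strand) and SLC2A1 (chr1:42958869-42959118, minus strand), the called members of the deep comparison that had a matched promoter. The sequences are written 5′ to 3′ along the gene's strand, with matches to any of 7 searched motifs in capitals.
SLC2A12: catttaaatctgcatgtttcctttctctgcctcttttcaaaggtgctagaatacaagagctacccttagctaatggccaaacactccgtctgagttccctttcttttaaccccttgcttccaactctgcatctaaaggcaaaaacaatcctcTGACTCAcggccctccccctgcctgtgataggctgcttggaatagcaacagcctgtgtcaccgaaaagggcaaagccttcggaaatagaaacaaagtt
SLC2A13: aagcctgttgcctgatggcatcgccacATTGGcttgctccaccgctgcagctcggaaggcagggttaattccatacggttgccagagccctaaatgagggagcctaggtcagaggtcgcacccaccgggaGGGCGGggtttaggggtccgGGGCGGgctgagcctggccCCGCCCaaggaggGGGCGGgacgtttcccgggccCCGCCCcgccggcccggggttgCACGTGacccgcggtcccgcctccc
SLC2A1: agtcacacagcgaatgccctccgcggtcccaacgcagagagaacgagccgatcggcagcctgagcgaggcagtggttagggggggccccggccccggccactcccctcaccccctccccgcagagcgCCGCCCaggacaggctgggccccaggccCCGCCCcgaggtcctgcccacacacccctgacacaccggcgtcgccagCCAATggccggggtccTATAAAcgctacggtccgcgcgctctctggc
The motifs, searched on both strands, were the GC box GGGCGG, the CCAAT box CCAAT, the TATA box TATAAA, the E-box CACGTG, the hypoxia factor cores ACGTG and GCGTG, and the AP-1 core TGANTCA, of which ACGTG also lies within CACGTG. RefSeq promoters were matched for 8 of the 10 members, with SLC2A3 and SLC2A4 unmatched. SLC2A12 was the only 1 of the 8 with TGANTCA, which 6.57% of 35116 promoters of the same length held. It had none of the other motifs, and its GC content was 46.0% against a median of 58.0% over all promoters. GGGCGG, present in 42.6% of all promoters, was found for 6 members, SLC2A13 and SLC2A1 among them. CCAAT (32.0% of all promoters) was found for 4 members. SLC2A1 was the only matched member with TATAAA (10.7%), and SLC2A13 was the only one with CACGTG (6.34%). ACGTG was found for 3 members (18.5% of all promoters) and GCGTG for 2 (32.2%). These matches describe letters only, and binding of the factors was not measured.

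In sh1Control, SLC2A12 stood at 2.04, 2.56 and 1.69 cpm (counts of 40, 45 and 34), and in shD3#1 at 20.6, 22.6 and 24.1 cpm (317, 437 and 245 counts). The lowest shD3#1 library lay far above the highest control. The means were 2.09 ± 0.437 and 22.4 ± 1.77 cpm (SD, n = 3 each), a 10.7-fold ratio, or 3.44 on the log2 scale with a standard error of 0.14. In sh4Control it stood at 2.47, 2.16 and 1.75 cpm, and in shD3#4 at 7.47, 5.94 and 5.89 cpm. The groups were again apart, with a 3.02-fold ratio and a log2 value of 1.62 (standard error 0.16). In siControl it was 1.90 and 2.91 cpm, and in siTHUMPD3 10.9, 10.3 and 8.70 cpm. The ratio of means was 4.14, and the log2 fold change was 2.07 (standard error 0.23), moving between 1.77 without siControl replicate 1 and 2.38 without siControl replicate 2. Since SLC2A12 was chosen for this shared rise, these are descriptions without a test.

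In the deep libraries SLC2A12 stood at 4.32, 3.55 and 3.37 cpm (254, 179 and 187 counts) in deep sh1Control and at 33.6, 31.7 and 31.4 cpm (1031, 865 and 1133 counts) in deep shD3#1. The ratio of means was 8.59 and the log2 fold change 3.10 (standard error 0.09). No test is given here either, because the rule that picked SLC2A12 names both tables. By log2 fold change it ranked 92 of 16456 genes in shD3 #1, 176 of 16493 in shD3 #4, 569 of 17032 in siD3 #3 and 215 of 18763 in deep shD3 #1. In all 3 knockdowns of the first libraries 160 genes were called higher, 1.02% of the 15656 genes tested in each. Among these, SLC2A12 was the fourth by mean log2 fold change, at 2.38, next to PCDH10 at 2.38 and TP53INP1 at 2.33. SLC2A12 was chosen for this shared rise, so these ranks are descriptions and give it no support. The rise was larger with shD3 #1 than with shD3 #4 by 1.82 on the log2 scale (standard error 0.25), also a description. THUMPD3 itself was lowered less by shD3 #1 than by shD3 #4, by 0.70 on the log2 scale (standard error 0.10, adjusted p = 1.17e-05 in edgeR's quasi-likelihood test of the difference).

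SLC2A1 (GLUT1, ENSG00000117394, chromosome 1, 42925353 to 42958893) provides basal glucose uptake in most cells and was the most abundant member per length in each group of the first libraries except shD3#1. In sh1Control it stood at 95.6, 90.7 and 96.1 cpm and in shD3#1 at 118, 123 and 99.4 cpm. The groups did not overlap, as for 62.1% of all genes tested there, but the lowest shD3#1 library lay close to the controls. The log2 fold change was 0.29 ± 0.07 (SE, edgeR adjusted p = 0.00335), under the fold threshold. In shD3 #4 it went from 80.1, 82.9 and 93.8 cpm to 108, 103 and 106 cpm, a log2 fold change of 0.32 ± 0.07 (SE, edgeR adjusted p = 3.79e-04), also under the fold threshold. The 5 siRNA libraries overlapped, at 114 and 95.9 cpm in siControl and 111, 112 and 115 cpm in siTHUMPD3 (log2 fold change 0.11 ± 0.10, edgeR adjusted p = 0.440).

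In the deep libraries SLC2A1 went from 174, 182 and 163 cpm to 286, 303 and 279 cpm. All 3 knockdown libraries stood well above the controls, and groups were apart for 67.1% of all genes tested there. The means of 173 ± 9.37 and 289 ± 12.4 cpm (SD, n = 3 each) gave a log2 fold change of 0.74 ± 0.05 (edgeR adjusted p = 7.60e-09), so SLC2A1 was called higher there and not in the first libraries of the same shRNA. The difference between these estimates, which come from separately scaled tables, was not tested. The change of SLC2A1 was not found to differ between the shRNAs of the first libraries (-0.04 ± 0.11 on the log2 scale, edgeR adjusted p = 0.835).

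SLC2A3 (GLUT3, ENSG00000059804, chromosome 12, 7919230 to 8019007) encodes a high-affinity glucose transporter best known from neurons and also made by many tumour cells. It stood at 55.1, 51.2 and 49.1 cpm in sh1Control and at 131, 144 and 117 cpm in shD3#1. Every knockdown library was above every control, and SLC2A3 rose by 1.36 ± 0.08 on the log2 scale (SE, edgeR adjusted p = 8.18e-10). The deep libraries went from 77.7, 73.5 and 83.3 cpm to 217, 201 and 210 cpm. That is a rise of 1.42 ± 0.05 (SE, edgeR adjusted p = 1.49e-11). In shD3 #4 the levels were 59.1, 61.0 and 52.4 cpm against 80.5, 75.9 and 70.0 cpm. These groups also stayed apart, as for 49.6% of all genes tested, and the log2 fold change of 0.41 ± 0.07 (edgeR adjusted p = 4.36e-05) was under the fold threshold. The rise was larger with shD3 #1 than with shD3 #4 by 0.95 ± 0.14 on the log2 scale (SE, edgeR adjusted p = 2.19e-05).

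In siD3 #3, SLC2A3 went from 61.5 and 52.3 cpm to 99.1, 91.6 and 75.1 cpm. The groups did not overlap, as for 60% of all genes tested, and SLC2A3 rose by 0.64 ± 0.14 (SE, edgeR adjusted p = 0.00944). That call rested on single libraries, since the log2 fold change was 0.52 (edgeR adjusted p = 0.0895) without siControl replicate 2 and 0.56 (0.0262) without siTHUMPD3 replicate 1, both under the fold threshold.

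SLC2A14 is a near-identical copy of SLC2A3 beside it on chromosome 12 and is not among the 10 members. Reads of the 2 genes may have been split between them in counting, so its values are uncertain. It stood at 0.843 to 1.48 cpm in sh1Control and 6.17 to 9.09 cpm in shD3#1, and it was called higher in shD3 #1 (log2 fold change 2.88), deep shD3 #1 (2.68) and siD3 #3 (2.19). With the counts of both genes added together, an alternative chosen after seeing the data, the log2 fold change was 1.41, 1.45 and 0.68 in the same comparisons and 0.41 in shD3 #4.

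SLC2A4 (GLUT4, ENSG00000181856, chromosome 17, 7281718 to 7288257), the insulin-responsive transporter of muscle and fat, was barely detected. It had 12, 15 and 15 counts in sh1Control and 2, 6 and 6 in shD3#1. All 3 knockdown libraries were below the controls, at 0.130 to 0.590 cpm against 0.612 to 0.852 cpm, and the log2 fold change was -1.19 ± 0.44 (SE, edgeR adjusted p = 0.0318). That call was lost without sh1Control replicate 2 (log2 fold change -1.08, edgeR adjusted p = 0.0964), sh1Control replicate 3 (-1.17, 0.0837), shD3#1 replicate 1 (-0.80, 0.166) or shD3#1 replicate 2 (-1.17, 0.0927), and in DESeq2 (-1.15, 0.199). The deep libraries, with 74, 42 and 61 counts against 6, 3 and 13, gave a fall of -2.19 ± 0.37 (SE, edgeR adjusted p = 1.07e-04). The levels there were 0.833 to 1.26 cpm in the controls and 0.110 to 0.360 cpm in the knockdown, the lowest at the limit of detection. In shD3 #4 and siD3 #3 it did not pass the filter, and its 2 to 14 counts per library overlapped between groups.

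SLC2A13 (HMIT, ENSG00000151229, chromosome 12, 39755025 to 40106089) encodes a proton-coupled myo-inositol transporter that does not carry glucose. In sh1Control it stood at 33.3, 35.7 and 31.7 cpm and in shD3#1 at 86.7, 82.3 and 83.1 cpm. The spread within each group was small beside the gap, and SLC2A13 rose by 1.34 ± 0.07 on the log2 scale (SE, edgeR adjusted p = 2.18e-10). The deep libraries went from 32.6, 29.2 and 31.0 cpm to 101, 96.9 and 94.7 cpm. The rise was 1.65 ± 0.05 (SE, edgeR adjusted p = 4.02e-12), and the ratios of means were 2.51 in the first and 3.15 in the deep libraries. In shD3 #4 it stood at 28.8, 28.9 and 34.6 cpm against 40.6, 32.4 and 34.7 cpm, which overlapped, with a log2 fold change of 0.24 ± 0.08 (SE, edgeR adjusted p = 0.0237) under the fold threshold.

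In siD3 #3 the SLC2A13 values went the opposite way, from 30.6 and 29.8 cpm to 21.0, 18.9 and 27.5 cpm. Every siTHUMPD3 library was below both controls, and the log2 fold change of -0.42 ± 0.16 (SE, edgeR adjusted p = 0.0788) did not pass the threshold. Without siTHUMPD3 replicate 3, the highest of the 3, it was -0.61 (edgeR adjusted p = 0.00108) and would be called lower. The test of the difference was passed on both counts. SLC2A13 rose more with shD3 #1 than with shD3 #4 by 1.10 ± 0.15 on the log2 scale (SE, edgeR adjusted p = 8.44e-06), and its siRNA effect lay below the mean shRNA effect by -1.20 ± 0.15 (SE, edgeR adjusted p = 2.49e-06). Over all genes, 25.9% of 18672 were called for the first difference and 16.5% for the second.

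SLC2A6 (GLUT6, ENSG00000160326, chromosome 9, 133471094 to 133479127) encodes a transporter of lysosomal membranes. It stood at 19.0, 20.8 and 21.9 cpm in sh1Control and at 15.6, 13.1 and 12.1 cpm in shD3#1. The groups were apart, and the log2 fold change of -0.57 ± 0.10 (SE, edgeR adjusted p = 1.44e-04) lay just under the fold threshold. It passed that threshold without sh1Control replicate 1 (-0.62, edgeR adjusted p = 5.91e-04) or without shD3#1 replicate 1 (-0.68, 1.03e-04). The deep libraries went from 34.2, 34.5 and 31.4 cpm to 25.7, 25.8 and 24.5 cpm, a smaller log2 fold change of -0.40 ± 0.06 (SE, edgeR adjusted p = 2.65e-05). In shD3 #4 the libraries overlapped, at 17.5 to 23.5 cpm in controls and 19.5 to 22.6 cpm in the knockdown. The siRNA libraries overlapped too, with siTHUMPD3 replicate 3 at 45.7 cpm and the other four at 27.2 to 34.6 cpm. The difference between the shRNAs was -0.64 ± 0.22 on the log2 scale (SE, edgeR adjusted p = 0.0277). It was lost, at adjusted p-values of 0.0569 to 0.0769 in edgeR, without any 1 of 6 libraries, namely sh1Control replicate 3, shD3#1 replicates 2 and 3, sh4Control replicates 1 and 2 and shD3#4 replicate 1.

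SLC2A8 (GLUT8, ENSG00000136856, chromosome 9, 127397138 to 127408424), a glucose transporter of intracellular membranes, was called in no comparison. Its levels lay between 8.93 and 14.97 cpm in the first libraries and between 7.47 and 10.2 cpm in the deep ones. On the log2 scale shD3 #1 gave -0.06 ± 0.10, shD3 #4 gave 0.11 ± 0.10 and siD3 #3 gave 0.20 ± 0.13, with edgeR adjusted p-values of 0.674, 0.392 and 0.289. In deep shD3 #1 it was -0.23 ± 0.09 (edgeR adjusted p = 0.0429), with the groups apart and the fold under the threshold. SLC2A10 (GLUT10, ENSG00000197496, chromosome 20, 46709649 to 46736347), whose loss causes an arterial disorder, had 0 or 1 count in every library, which at the limit of 3 counts allows up to 0.304 cpm in the shallowest one.

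SLC2A9 (GLUT9, ENSG00000109667, chromosome 4, 9771153 to 10054936) had 3 to 14 counts in each of the first libraries and was not tested in shD3 #4. Its log2 values of 0.58 ± 0.45 for shD3 #1 and 0.78 ± 0.46 for siD3 #3 did not pass (edgeR adjusted p = 0.295 and 0.231), and no change was detectable at these counts. The deep libraries gave 112, 99 and 98 counts in the controls and 57, 66 and 60 in the knockdown. On the cpm scale these were level, at 1.88 ± 0.100 and 1.98 ± 0.391 cpm (SD, n = 3 each), with a log2 fold change of 0.06 ± 0.18 (edgeR adjusted p = 0.785). SLC2A9 stood at 0.153 to 0.723 cpm in the first table and 1.66 to 2.42 cpm in the deep one, on separately scaled tables.

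SLC2A11 (GLUT11, ENSG00000133460, chromosome 22, 23856703 to 23886312) had 82 to 154 counts in each of the first libraries. In sh1Control it stood at 6.17, 6.76 and 5.50 cpm and in shD3#1 at 8.63, 7.96 and 9.54 cpm. The groups were apart, and the log2 fold change of 0.51 ± 0.13 (SE, edgeR adjusted p = 0.00286) was under the fold threshold. In shD3 #4 and siD3 #3 it was 0.10 ± 0.11 and -0.17 ± 0.25 (edgeR adjusted p = 0.539 and 0.637). In all 6 deep libraries SLC2A11 was listed at 0, and so were its chromosome 22 neighbours MIF and SMARCB1, which had 43 to 179 and 315 to 762 counts in the first libraries. The deep table therefore gave no measurement of SLC2A11.

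**Figure D2:**
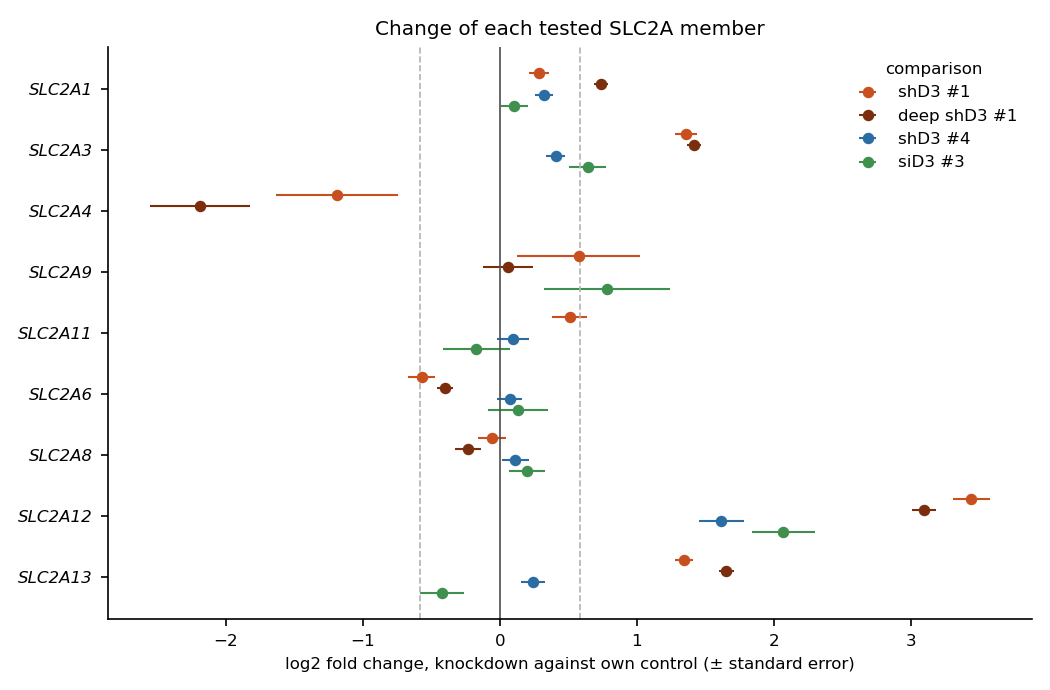
Log2 fold change of each tested SLC2A member in the 4 comparisons, with standard errors as bars and dashed lines at a 1.5-fold change in either direction. SLC2A12 lies beyond the line in all 4 comparisons, SLC2A3 in 3, and SLC2A13 has its shD3 #1 and deep shD3 #1 points at 1.34 and 1.65 and its siD3 #3 point at -0.42.

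The median log2 fold change of the members tested, beside that of all genes tested, was 0.51 against -0.01 in shD3 #1, 0.24 against 0.01 in shD3 #4, 0.16 against 0.03 in siD3 #3 and 0.40 against -0.02 in deep shD3 #1. These medians contain SLC2A12, and they leave out members that the filter removed.

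Levels were compared between genes per length, as cpm divided by the kilobases of merged exon sequence (RPKM), in the first libraries alone. In sh1Control the order was SLC2A1 (14.2 ± 0.451 RPKM), SLC2A3 (7.14 ± 0.424), SLC2A6 (5.83 ± 0.407), SLC2A13 (3.35 ± 0.200), SLC2A8 (2.51 ± 0.156), SLC2A11 (0.691 ± 0.0706), SLC2A12 (0.376 ± 0.0785), SLC2A4 (0.184 ± 0.0301) and SLC2A9 (0.0637 ± 0.0352), each mean ± SD of 3 libraries. No neighbours in that order overlapped, and the same held in sh4Control. In siControl, by contrast, SLC2A3 and SLC2A6 overlapped, as did SLC2A13 and SLC2A8 and also SLC2A4 and SLC2A9. In shD3#1, SLC2A3 (16.1 to 19.9 RPKM) and SLC2A1 (15.03 to 18.5 RPKM) overlapped at the top of the order. SLC2A12 there stood at 3.69 to 4.33 RPKM, overlapping SLC2A6 (3.43 to 4.41 RPKM) and above SLC2A8 (2.30 to 2.45 RPKM). In shD3#4 and siTHUMPD3 it reached 1.06 to 1.34 and 1.56 to 1.96 RPKM, above SLC2A11 in both.

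The summed level of the 10 members was 34.4 ± 0.204 RPKM in sh1Control and 54.9 ± 3.75 in shD3#1. It was 33.3 ± 1.61 and 40.6 ± 1.94 RPKM in sh4Control and shD3#4, and 40.0 ± 3.84 and 47.4 ± 2.16 RPKM in siControl (n = 2) and siTHUMPD3. The libraries of each knockdown lay above those of its control in these sums. SLC2A12 made up 1.09% of the sum in sh1Control and 7.37% in shD3#1, and its share went from 1.15% to 2.84% in shD3 #4 and from 1.10% to 3.79% in siD3 #3. SLC2A1 went from 41.4% to 31.1% of the sum between sh1Control and shD3#1 while its own level was not lower, and SLC2A3 went from 20.8% to 32.8%. These sums and shares are descriptions over members chosen with results known.

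**Figure D3:**
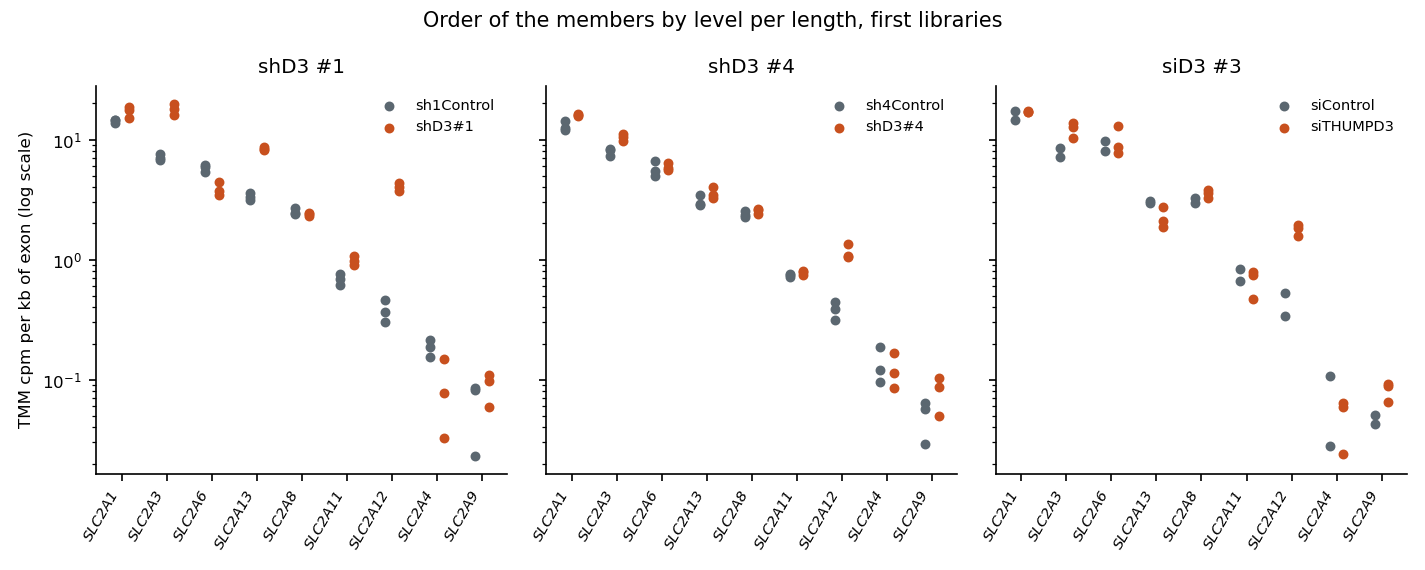
Level per length (TMM cpm per kilobase of exon, log axis) of 9 members in each library of the first table, grey for controls and orange for knockdowns, in the order of the sh1Control means. SLC2A12 moves up the order in each knockdown, to 3.69 to 4.33 in shD3#1, while SLC2A1 and SLC2A3 overlap at the top in shD3#1.

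The remaining SLC2A genes were at the edge of detection. SLC2A2, the liver and beta cell transporter, had at most 1 count in any library. SLC2A5, the fructose transporter, had 0 to 11 counts in the first libraries and 3 to 17 in the deep ones, and SLC2A7 had at most 8 counts in any library.

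Genes whose levels moved most like those of SLC2A12 were sought among 14499 genes over the 17 first libraries by Pearson's r of log2 cpm. The highest were KITLG, the ligand of the KIT receptor (0.971), AKAP6, an anchor of protein kinase A (0.970), the kinase gene STK38L (0.969), DENND4A (0.968) and GSN, which encodes the actin-severing gelsolin (0.966). The libraries share 6 groups and a common knockdown target, so these values describe a shared order of groups. GSN, for instance, stood at 39.5 ± 1.04 cpm in sh1Control and 129 ± 2.53 in shD3#1, at 35.5 ± 1.43 and 54.5 ± 1.13 in sh4Control and shD3#4, and at 30.4 ± 2.64 and 77.6 ± 5.20 in siControl and siTHUMPD3. The largest level was in shD3#1 and the smallest rise was in shD3 #4, as for SLC2A12. AKAP6 went from 7.53 ± 0.909 to 39.1 ± 4.11 cpm in shD3 #1, the steepest rise of these 5.

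Glucose that enters through the family is trapped by hexokinases and passes through glycolysis. Of 31 glycolysis genes, 22 were tested in shD3 #1, where 29.1% of all genes were called in either direction, and 2 were higher and 0 lower. None of 23 was called in shD3 #4 (12.5% of all genes), 2 of 22 were higher and 2 lower in siD3 #3 (22%), and 1 of 24 was higher and 4 lower in deep shD3 #1 (29.1%). Without 1 library the counts moved from 0 to 1 in shD3 #4 (sh4Control replicate 2 or 3, shD3#4 replicate 1 or 3), from 4 to 2 in siD3 #3 (siControl replicate 2) and from 5 to 3 in deep shD3 #1 (deep sh1Control replicate 3, deep shD3#1 replicate 2 or 3), and DESeq2 also called 3 in the deep libraries. The list's median log2 fold change was 0.06, 0.03, -0.02 and -0.10 in that order, beside -0.01, 0.01, 0.03 and -0.02 for all genes. HK1, the main hexokinase of most cells, rose by 0.88 ± 0.07 in shD3 #1 and by 0.72 ± 0.10 in siD3 #3 on the log2 scale, and had 0.56 ± 0.08 in shD3 #4 and 0.54 ± 0.06 in deep shD3 #1, just under the fold threshold. PFKFB4, a regulator of phosphofructokinase, was the most raised of the called genes in siD3 #3 at 0.85 ± 0.19, and TPI1, triose phosphate isomerase, the most lowered at -0.65 ± 0.10. HK2, another hexokinase, had a larger value there that did not pass (1.10 ± 0.42, edgeR adjusted p = 0.0800). In deep shD3 #1 the extremes were GPI, glucose phosphate isomerase, at 0.71 ± 0.05 and HK3 at -0.93 ± 0.39, whose adjusted p was 0.0474 in edgeR. The 4 called lower there had low control means, of 0.511 (HK3), 1.27 (HK2), 2.93 (ALDOC) and 4.51 cpm (ALDOA). GAPDH, PKM, ENO1 and PGK1, at 2301, 2284, 1053 and 278 cpm in the deep controls, were not called. None of the glycolysis calls held at a log2 threshold of 1.

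Of 9 genes of the pentose phosphate pathway, which diverts glucose 6-phosphate to NADPH and ribose, 8 were tested in each comparison and none was called higher. In shD3 #1, 3 were lower (14.6% of all genes), in siD3 #3 and deep shD3 #1, 1 and 2 (9.42% and 14.1%), and in shD3 #4 none (4.49%). The siD3 #3 call was lost without siControl replicate 2, siTHUMPD3 replicate 1 or siTHUMPD3 replicate 3, and the deep count fell to 1 without deep sh1Control replicate 1 or 3 and to 0 without deep shD3#1 replicate 1. The median log2 fold changes were -0.35, -0.16, -0.32 and 0.01 in shD3 #1, siD3 #3, deep shD3 #1 and shD3 #4. PGD, phosphogluconate dehydrogenase, went from 851 ± 43.1 to 529 ± 17.1 cpm in shD3 #1 (log2 fold change -0.67 ± 0.06, edgeR adjusted p = 8.00e-08), and in shD3 #4 its value was 0.42 ± 0.08. TKT, transketolase, was the most lowered in deep shD3 #1 at -0.60 ± 0.05 and RPE in siD3 #3 at -0.59 ± 0.08. All these falls lay close to the fold threshold, and none was called at a log2 threshold of 1. Of 6 genes for lactate transport, 5 were tested in each comparison. SLC16A7 (MCT2) was higher in shD3 #4 (0.67 ± 0.08), where 8% of all genes were called higher. The basigin relative EMB was higher in deep shD3 #1 (0.77 ± 0.06), where 15% of all genes were. None was called in shD3 #1 or siD3 #3, where 29.1% and 22% of all genes were called in either direction. The SLC16A7 call was lost without sh4Control replicate 1.

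Among 22 regulators of these transporters, 21 were tested in each comparison. In shD3 #1, 2 were higher and 1 lower, in shD3 #4 none was called, in siD3 #3, 2 were higher, and in deep shD3 #1, 3 were higher and 2 lower, where 29.1%, 12.5%, 22% and 29.1% of all genes were called in either direction. In shD3 #4 the count became 1 without sh4Control replicate 1 or 3 or shD3#4 replicate 1, 2 without shD3#4 replicate 3, and 1 in DESeq2 and in the fit of all 17 libraries. The median log2 fold changes were 0.03, 0.02, 0.09 and -0.10. The arrestins ARRDC4 and TXNIP promote internalisation of GLUT proteins. ARRDC4 rose by 1.18 ± 0.17 in shD3 #1, 2.57 ± 0.38 in siD3 #3 and 0.99 ± 0.20 in deep shD3 #1, from control means of 1.37 to 2.48 cpm, and had 0.11 ± 0.17 in shD3 #4. TXNIP rose by 2.32 ± 0.54 in siD3 #3 and 1.39 ± 0.15 in deep shD3 #1, with 0.30 ± 0.15 in shD3 #1 not called. TBC1D4, a Rab GTPase activator that retains GLUT4 inside cells, rose by 1.13 ± 0.07 in shD3 #1 and 1.29 ± 0.06 in deep shD3 #1, and had 0.48 ± 0.07 in shD3 #4 and 0.20 ± 0.12 in siD3 #3, neither called. HIF1A, the hypoxia factor that drives SLC2A1 and SLC2A3 transcription, fell by 0.59 on the log2 scale in shD3 #1 (standard error 0.06). It was also called lower in deep shD3 #1 (-0.62 ± 0.04), and had 0.16 ± 0.06 in shD3 #4 and -0.01 ± 0.10 in siD3 #3, neither called. ARRDC3 was the most lowered in deep shD3 #1 at -0.73 ± 0.07 and had -0.10 ± 0.06 in shD3 #1, not called. In shD3 #4 and siD3 #3, ARRDC3 had 0.58 ± 0.06 and 0.58 ± 0.08, both just under the fold threshold.

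Of 20 hypoxia-inducible genes, all tested, 5 were higher and 2 lower in shD3 #1, 2 and 1 in shD3 #4, 6 and 1 in siD3 #3, and 4 and 6 in deep shD3 #1. The shares of all genes called in either direction were 29.1%, 12.5%, 22% and 29.1% in that order. The 7 called in siD3 #3 became 3 without siControl replicate 1 and 4 without siTHUMPD3 replicate 2. The median log2 fold changes were 0.04, 0.02, 0.37 and -0.13. EGLN3, an oxygen-sensing prolyl hydroxylase, was the only gene of the 7 lists around sugar uptake called the same way in all 4 comparisons, at 1.39 ± 0.11, 0.65 ± 0.11, 0.65 ± 0.16 and 1.08 ± 0.12. The carbonic anhydrases, which buffer pH, moved otherwise. CA9 was the most lowered in shD3 #1 (-2.21 ± 0.27) and siD3 #3 (-1.55 ± 0.33), from control means of 2.86 and 2.99 cpm. CA12 fell from 1187 ± 59.6 to 334 ± 12.8 cpm in deep shD3 #1, a log2 fold change of -1.83 ± 0.05, and rose from 843 ± 88.5 to 1488 ± 22.6 cpm in shD3 #4, a log2 fold change of 0.83 ± 0.08. CA12 also fell in shD3 #1, from 1007 ± 8.34 to 216 ± 3.22 cpm (log2 fold change -2.20 ± 0.06). STC2, a secreted glycoprotein, was the most lowered in shD3 #4 (-1.55 ± 0.10) but was called higher in shD3 #1 (0.85 ± 0.07). STC2 had 0.50 ± 0.11 in deep shD3 #1 and 0.61 ± 0.39 in siD3 #3, neither called. ADM, the peptide adrenomedullin, was the most raised in siD3 #3 (0.94 ± 0.09). The list thus held members moving in both directions in each comparison.

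Of 21 genes for fructose, polyols, inositol and urate, the other substrates of the family, 17 or 18 were tested. They counted 2 higher and 5 lower in shD3 #1, 4 and 1 in shD3 #4, 1 and 3 in siD3 #3, and 1 and 3 in deep shD3 #1, with median log2 fold changes of -0.33, -0.09, -0.29 and -0.21. Over all genes 29.1%, 12.5%, 22% and 29.1% were called in either direction. The 5 called in shD3 #4 became 3 without shD3#4 replicate 1 and 2 in DESeq2. The 4 called in deep shD3 #1, 3 of them lower, became 1 where at least 10 counts were required in every library. SLC5A11, a sodium-coupled myo-inositol transporter, was the most raised in shD3 #1 (1.62 ± 0.20), shD3 #4 (1.18 ± 0.21) and deep shD3 #1 (1.61 ± 0.14), and stood at 0.03 ± 0.39 in siD3 #3. SLC5A3, the other sodium-coupled myo-inositol transporter of the list, was called in no comparison, at -0.22 ± 0.07 in shD3 #1 and 0.26 ± 0.05 in deep shD3 #1. XDH, which makes urate, was lower in shD3 #4 (-0.63 ± 0.19) and higher in siD3 #3 (2.28 ± 0.22). The most lowered were the urate transporters SLC22A11 in shD3 #1 (-2.20 ± 0.41) and SLC17A3 in deep shD3 #1 (-3.21 ± 0.34), and KHK, ketohexokinase, in siD3 #3 (-1.25 ± 0.26). In shD3 #4, by contrast, SLC17A3 was called higher (0.93 ± 0.17), as was its relative SLC17A1 (1.06 ± 0.29), and SLC22A11 had 0.60 ± 0.30, not called.

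Of 17 other sugar transporters, the SLC2A genes outside the 10 members included, 8 to 11 were tested. They counted 2 higher and 3 lower in shD3 #1, 1 and 1 in shD3 #4, 2 and 1 in siD3 #3, and 3 and 1 in deep shD3 #1, beside the same shares of all genes called as above. The 2 called in shD3 #4 became 1 without sh4Control replicate 2 or shD3#4 replicate 2. The median log2 fold changes were -0.08, 0.20, -0.03 and 0.07. SLC2A14 was the most raised in 3 of the comparisons, as given above, and SLC5A9, a sodium-coupled mannose and fructose transporter, in shD3 #4 (2.00 ± 0.29). SLC45A4 fell from 48.2 ± 2.27 to 11.8 ± 1.13 cpm in shD3 #1 (log2 fold change -1.99 ± 0.08) and from 120 ± 9.88 to 35.4 ± 2.45 cpm in the deep libraries (-1.77 ± 0.07). SLC45A3 was the most lowered in shD3 #4 (-0.62 ± 0.14), and SLC37A4, the glucose 6-phosphate carrier of the endoplasmic reticulum, in siD3 #3 (-1.12 ± 0.11).

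**Figure D4:**
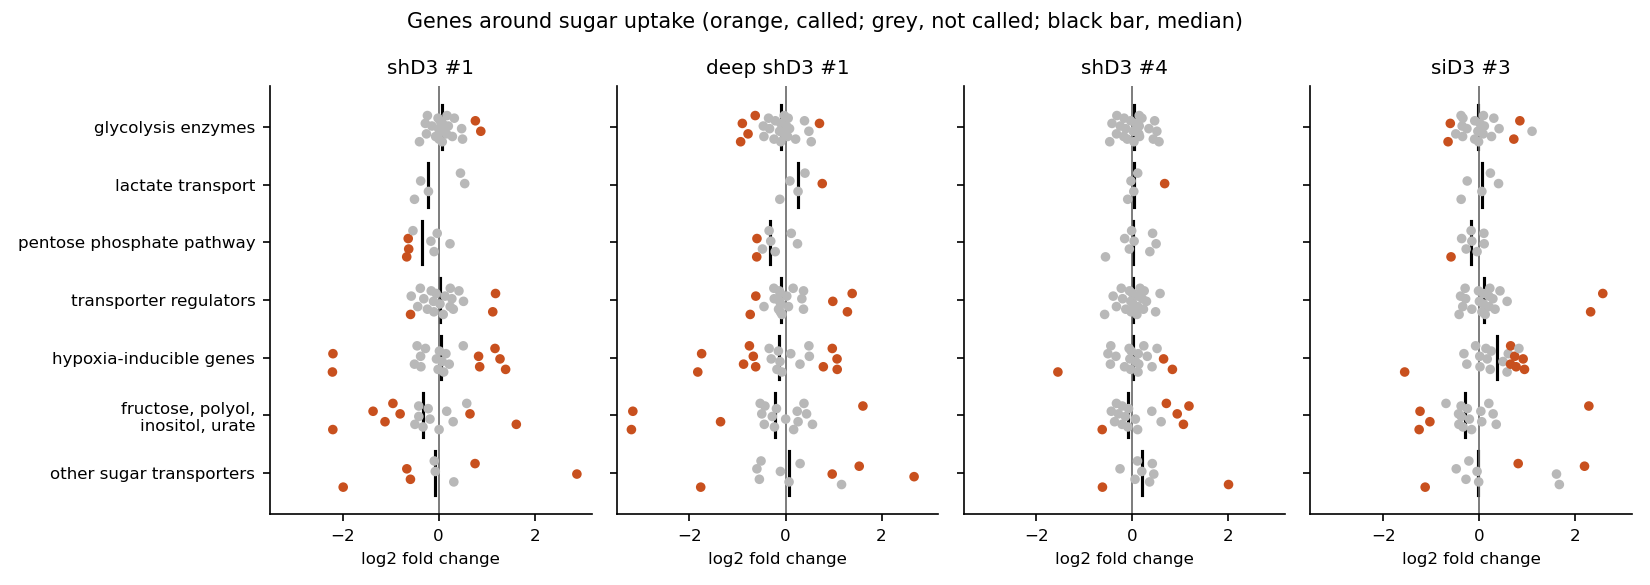
Log2 fold changes of the tested genes of 7 lists around sugar uptake in the 4 comparisons, with called genes in orange, others in grey and each list's median as a black bar. The medians lie between -0.35 and 0.37, and called genes of the hypoxia-inducible list lie on both sides of 0 in each comparison.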

How the data were processed

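Total RNA of A549 cells, depleted of rRNA, was sequenced with a directional kit. The authors trimmed reads with Trimmomatic 0.40, aligned them with STAR 2.7.10a to GRCh38.p14 and deposited whole-number counts per gene, without normalisation. The strand setting of counting is not given in the sources used here, so reads of overlapping genes (TBPL1 lies close to SLC2A12 on the opposite strand, and C12orf40 overlaps SLC2A13) cannot be told apart. There are 61806 genes in the first count file and 42901 in the deep one. Lengths and positions came from GENCODE 44.

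Counts were fitted in edgeR 4.0.16 (R 4.3.3) with TMM, filterByExpr and the quasi-likelihood test, each knockdown against its own control. Differences between knockdowns were tested in 1 model of all 17 first libraries. Each SE is the log2 fold change divided by the square root of F. Printed cpm were scaled over all libraries of a table. Alternatives were DESeq2 1.42.0, its size factors, other filters, glmTreat, a log2 threshold of 1, the replicate number as a block, 1 fit of all first libraries and leaving out each library. The tests were checked on simulated data.

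The members and gene lists were chosen with earlier results of these data known. Named genes were THUMPD3, all SLC2A genes, the most raised and most lowered called gene of each list in each comparison, genes called the same way in all 4 comparisons, and the 5 genes most like SLC2A12. HK1, PGD, HIF1A, ARRDC3, ARRDC4, TXNIP, CA12, STC2, SLC5A11, SLC17A3 and SLC22A11 are also given in comparisons beyond that rule. MIF, SMARCB1, PCDH10, TP53INP1, HK2, TBC1D4, SLC5A3, SLC17A1 and the single marker genes were added after their values were seen. So were ALDOA, ALDOC, GAPDH, PKM, ENO1 and PGK1.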

Additional observations from a re-analysis of the deposited data

Results flagged for a closer look

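In 4 cases the change of a member differed between knockdowns by a test of the difference itself, in edgeR's quasi-likelihood model of all 17 first libraries. Between the shRNAs, shD3 #1 minus shD3 #4, the difference in log2 fold change was 0.95 for SLC2A3, -0.64 for SLC2A6 and 1.10 for SLC2A13, with adjusted p-values of 2.19e-05, 0.0277 and 8.44e-06. Between the siRNA and the mean of the shRNAs it was -1.20 for SLC2A13, with an adjusted p of 2.49e-06. Over all 18672 genes tested, 25.9% were called between the shRNAs and 16.5% between the siRNA and the mean shRNA. The SLC2A6 call was lost in edgeR's glmTreat (adjusted p = 0.597) and, as given above, without single libraries. All 3 shD3#1 libraries held more SLC2A13 than the highest of the other 14 first libraries, at 82.3 cpm or more against at most 40.6 cpm. THUMPD3 itself also differed, by 0.70 between the shRNAs (adjusted p = 1.17e-05), and the harvest day differed between siRNA and shRNA. The part of either in these differences was not tested.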

How the results depend on the processing

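Of 429 member values of the 4 comparisons recomputed under an alternative, 401 counted as the same, and 11 lost and 5 gained a call. The same means an unchanged direction and side of the threshold. For SLC2A12 in the first libraries, given without a test, it means within 1 standard error of the main value. By that measure 3 values of SLC2A12 moved, without a change of direction. Another 9 turned sign, none of them past the threshold on either side. The members called numbered 4 in shD3 #1 (3 to 5 when leaving out 1 library), 1 in shD3 #4 (always 1), 5 in deep shD3 #1 (always 5) and 2 in siD3 #3 (1 to 3). In siD3 #3 it was 1 with glmTreat and 1 at a log2 threshold of 1. For the difference between the shRNAs it was 4, with SLC2A12 (3 to 4), and 2 at a log2 threshold of 1. For the siRNA against the mean shRNA it was 1 (1 to 2, with SLC2A11 added at -0.62 without siTHUMPD3 replicate 1). THUMPD3 at -0.97 in shD3 #1 missed a threshold of 1. SLC2A1 at 0.74 in deep shD3 #1 and SLC2A3 at 0.95 between the shRNAs missed it as well.

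Leaving out 1 library turned the sign of small values. The ranges were -0.091 to 0.0057 for SLC2A8 in shD3 #1, -0.025 to 0.19 for SLC2A6 in shD3 #4, -0.021 to 0.23 for SLC2A1, -0.33 to 0.016 for SLC2A11 and -0.14 to 0.28 for SLC2A6 in siD3 #3, and -0.10 to 0.18 for SLC2A9 in deep shD3 #1. Between the shRNAs they were -0.11 to 0.048 for SLC2A1 and -0.51 to 0.18 for SLC2A9, and the siRNA difference of SLC2A4 ran from -0.49 to 1.38. With the replicate block SLC2A11 and SLC2A6 in siD3 #3 became 0.032 and -0.12. No siControl library carries replicate number 3, so siTHUMPD3 replicate 3 adds nothing to the effect in that fit. The blocked values lie near the 0.016 and -0.14 found without that library. The cause of the other sign changes was not tested.

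Libraries with the same replicate number showed little common deviation from their group means (correlations of -0.085 to 0.115). With 2 or 3 libraries in a group the deviations constrain each other, so this check cannot exclude pairing. With the replicate block the siD3 #3 value of SLC2A13 was -0.60 and called lower. For the reason given above, this nearly repeats the -0.61 found without siTHUMPD3 replicate 3 and is no separate support. The count of members called changed by no more than 1 with the block. Over all genes, a log2 threshold of 1 left 1194 higher and 1086 lower in shD3 #1, 531 and 187 in shD3 #4, 1338 and 787 in siD3 #3, and 1601 and 1277 in deep shD3 #1. glmTreat left 1423 and 1328, 503 and 179, 904 and 766, and 1892 and 1464. Some of the 7 lists around sugar uptake lost all their calls. A log2 threshold of 1 left 0 glycolysis genes called in shD3 #1, siD3 #3 and deep shD3 #1, and glmTreat left 1, 0 and 2. Both settings left 0 pentose phosphate genes called in these comparisons and 0 lactate transport genes in shD3 #4. glmTreat and a log2 threshold of 1 left 2 and 1 of the 7 hypoxia-inducible genes called in siD3 #3. In shD3 #4, glmTreat left 1 of the 5 called fructose, polyol, inositol and urate genes. The counts of SLC2A4 (2 to 15) and SLC2A9 (3 to 14) limit the precision of their values in the first libraries.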
